A study of Mus musculus with 12 samples.

Results

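Transcripts of 7 genes that encode neurotrophins and their receptors were followed in the medial prefrontal cortex (PFC) of mice raised with or without microbes. These were the ligands Bdnf and Ntf3, the tyrosine kinase receptors Ntrk2 and Ntrk3, the p75 receptor Ngfr and the sorting receptors Sort1 and Sorcs2. They were chosen by gene name as the neurotrophin ligands and receptors of the count table, by a rule that used no measured value, and are 7 of its 41388 genes. A further ligand, Ntf5, was followed beside them. All mice were male Swiss Webster mice aged 10 weeks. Conventionally raised mice (CON) carried a normal microbiota. Germ-free mice (GF) were bred and kept in isolators without microbes. The exGF mice were born germ-free and moved on postnatal day 21 to a standard unit beside CON mice, where environmental microbes colonized them. Each group had 4 RNA-sequencing libraries, and each was made from polyA RNA of 2 to 3 mice mixed in equal amounts, which makes every SD and p-value below one between pools. The 4 exGF libraries are called GFR1 to GFR4, as in the count table, since nothing paired these columns with the numbers of the exGF samples.

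Neurotrophins are secreted proteins that act on neurons and glia through paired receptors. BDNF, the product of Bdnf, binds the kinase TrkB (Ntrk2), and neurotrophin-3 (Ntf3) binds mainly TrkC (Ntrk3). Their uncleaved precursors bind the p75 receptor (Ngfr) together with sortilin (Sort1) or SorCS2, which also sort neurotrophins and their receptors inside cells. In cortex Bdnf is made largely by excitatory neurons, and its transcription rises with neuronal activity. Ntrk2 yields a full-length kinase in neurons and a truncated receptor without the kinase that is abundant in astrocytes.

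Counts on genes ranged from 22757169 to 29134760 in CON, from 13280926 to 23465074 in GF and from 22702599 to 28615407 in exGF libraries, with GF replicate 1 the shallowest. Levels are given as CPM, a gene's counts scaled to a common library size. Markers of excitatory neurons were abundant in all 12 libraries, with 6 genes summing to between 6910 and 8460 CPM, which fits the labelled tissue. Of 6 oligodendrocyte markers 5 were called higher in GF than in CON (beside 0.116% of all genes), with summed levels of 952 to 1250 CPM (CON), 1620 to 2590 CPM (GF) and 910 to 1580 CPM (exGF). Of 6 markers of meninges 2 were called lower (beside 0.135% of all genes), with sums of 156 to 216, 101 to 137 and 117 to 160 CPM in the same order. The study had picked all 6 of the oligodendrocyte markers and 3 of the meninges markers on these same libraries. CON replicate 2 and GFR4 stood apart in 6 striatal markers, with summed levels of 266 and 264 CPM against 129 to 165 in the other libraries. In bulk tissue, fewer cells of a type and less RNA per cell cannot be told apart.

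The 7 genes spanned a wide range of abundance. Per kilobase of annotated exon, Sort1 was highest at 83.7 CPM over the 12 libraries (98.2th percentile of genes with counts) and Ntrk2 next at 38.5 CPM (95.2th percentile). Bdnf followed at 6.45, Sorcs2 at 4.82 and Ntrk3 at 1.80 CPM per kilobase. Ntf3, at 0.620, and Ngfr, at 0.180 CPM per kilobase, were near the limit of these libraries, with 8 to 38 and 4 to 20 counts each. Sort1 and Ntrk2 thus formed the abundant pair, and a neurotrophin precursor receptor, Ngfr, was the scarcest of the 7.

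Within each group, neighbours in this order did not overlap, apart from the pair of Bdnf and Sorcs2. Bdnf and Sorcs2 overlapped in CON (5.13 to 5.87 against 4.50 to 5.95 CPM per kilobase) and did not overlap in GF (6.49 to 9.28 against 3.86 to 4.94). In exGF they overlapped marginally. GFR4 held both the lowest Bdnf and the highest Sorcs2 value, each 5.62 CPM per kilobase after rounding, with Sorcs2 slightly higher before it. Ntf3 and Ngfr did not overlap within a group, but in exGF they came as near as 0.202 for Ntf3 and 0.198 for Ngfr. Exon length here is that of all isoforms together, 19292 bases for Ntrk2 and 30170 for Ntrk3, so a gene with long, rarely used exons is placed too low.

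**Figure D1:**
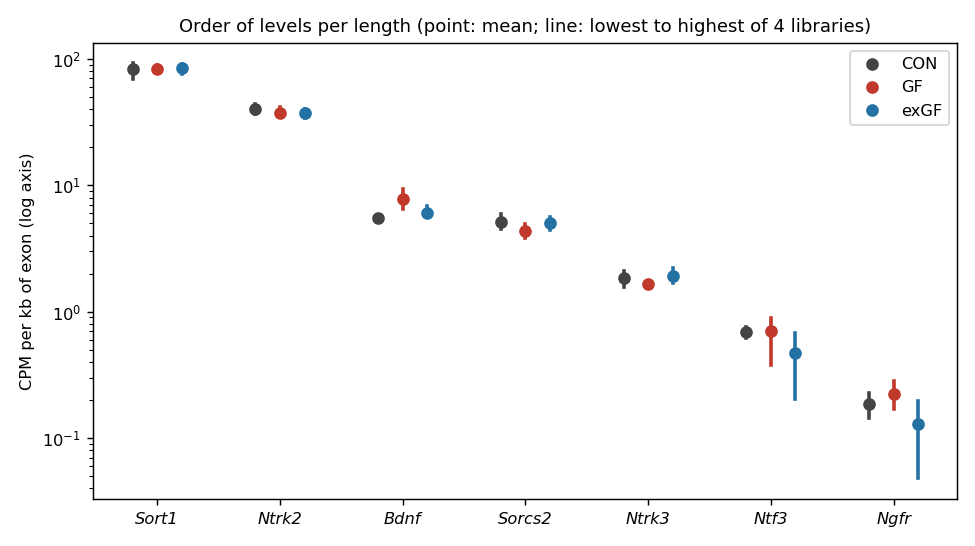
Level of each gene per kilobase of exon (CPM per kb, log axis), with the mean of each group as a point and a line from its lowest to its highest library (n = 4). Sort1 and Ntrk2 lie highest, and Bdnf and Sorcs2 overlap in CON but not in GF.

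Bdnf (ENSMUSG00000048482, GRCm38 chr2:109674700-109727007, plus strand, 11 annotated transcripts over 6217 exon bases) was the member that differed most clearly between the groups. In CON the libraries held 33.6, 31.9, 36.5 and 34.8 CPM. In GF they held 42.2, 54.3, 40.3 and 57.7 CPM, and all 4 GF libraries lay above all 4 CON libraries. In GFR1 to GFR4 the values were 42.8, 36.0, 35.8 and 34.9 CPM, so that 3 of 4 exGF libraries fell within the range of CON and GFR1 within that of GF. The group means were 34.2 ± 1.94 (CON), 48.6 ± 8.67 (GF) and 37.4 ± 3.64 CPM (exGF, SD, n = 4 each). The GF libraries were themselves split into a lower and a higher pair, and their relative spread (17.8% of the mean) was larger than that of CON (5.67%).

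Against CON, Bdnf was 1.42-fold higher in GF (95% interval 1.20 to 1.70), a log2 fold change of 0.51 (SE 0.12). By edgeR's quasi-likelihood test the unadjusted p was 0.00067, rank 71 of 15542 genes, and the Benjamini-Hochberg adjusted p of 0.144 missed the threshold of 0.1. An exact permutation test of the 4 and 4 libraries gave p = 0.0286 (two-sided), the smallest that this design allows. With DESeq2 instead of edgeR the gene was called (log2 0.40, shrunken, adjusted p = 0.0157), and it was also called without a filter on low counts (log2 0.49, adjusted p = 0.0189) or without GF replicate 3 (log2 0.59, adjusted p = 0.0976). Bdnf is a gene that the study had picked on these libraries, so none of these values is independent of that choice.

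Colonization after weaning went with values nearer to CON. In exGF against CON the log2 fold change was 0.12 (SE 0.09, 95% interval -0.08 to 0.32, edgeR with Benjamini-Hochberg adjusted p = 0.968), and without GFR1 it was 0.06. The direct comparison of GF with exGF gave 0.38 (SE 0.12, 95% interval 0.11 to 0.65), with an unadjusted p of 0.00879 and an adjusted p of 0.736 in edgeR, and only 2 of 4 GF libraries lay above all exGF libraries (exact permutation test, p = 0.0857). Without GFR1 that difference was 0.45 (adjusted p = 0.222). A difference in Bdnf between GF and exGF was therefore not called, although its interval left out 0. The summed oligodendrocyte markers were also higher in GF, at 1770, 1620, 2590 and 2010 CPM in GF replicates 1 to 4. In GFR1 to GFR4 they summed to 1510, 1060, 910 and 1580 CPM. Summed excitatory neuron markers overlapped between the groups (7080 to 7620 CPM in CON and 6950 to 8460 in GF). All 6 had a positive log2 fold change in GF against CON (0.03 to 0.21, median 0.11), beside 8031 of 15542 genes. In edgeR 0 of 6 were called, with 0 at an unadjusted p under 0.05, beside 8.69% of all genes. The part of either cell type in the Bdnf values was not tested.

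**Figure D2:**
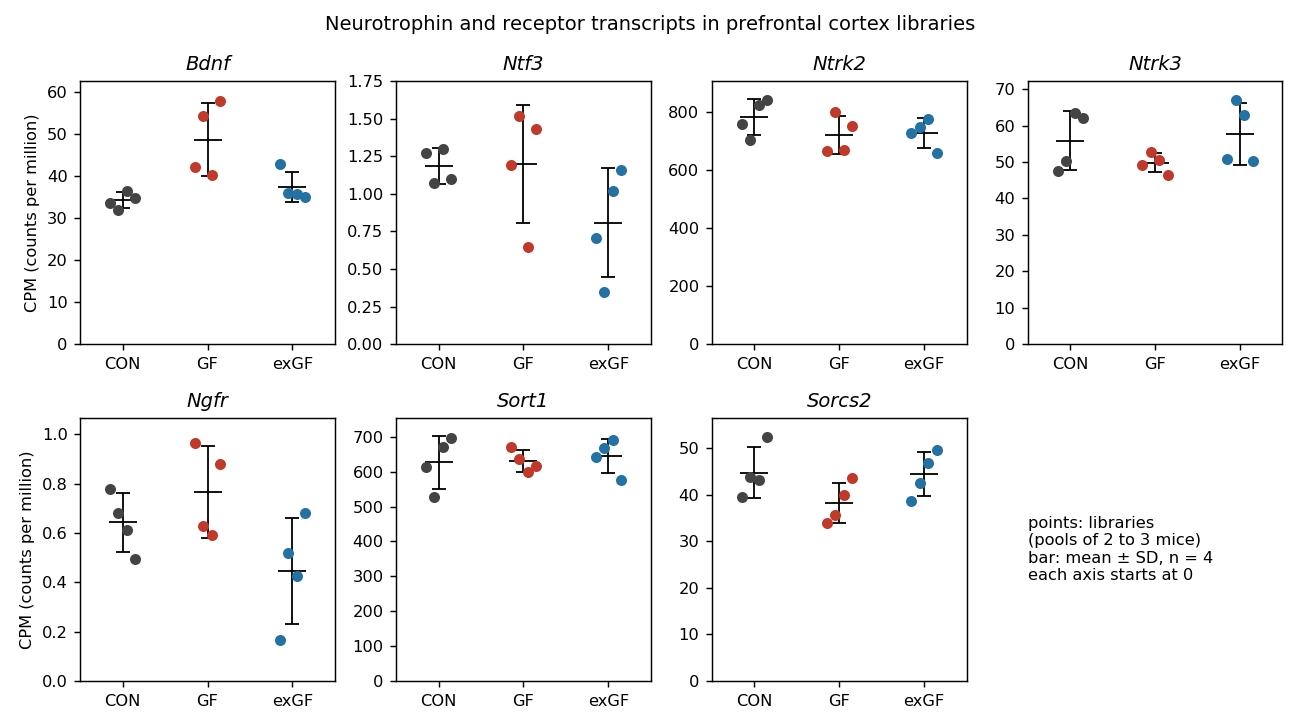
Level of each of the 7 genes (CPM, axes from 0) in the 4 libraries of CON, GF and exGF, with points for libraries and bars for mean ± SD (n = 4). For Bdnf all 4 GF libraries lie above all CON libraries, while the groups of every other gene overlap.

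Mouse Bdnf is transcribed from several promoters, which respond differently to neuronal activity. The counts are sums over the gene and hold no information on which promoter was in use. RefSeq (GRCm38.p6) start sites were matched for 4 of the 7 genes, with 11 windows of 250 bases upstream, 7 of them for Bdnf. These were searched on both strands for TGACGTCA, the palindromic cAMP response element, for CACGTCA, the variant known from the activity-responsive promoter of Bdnf, and for its core TGACG, which both of the longer words contain. Of the 7 Bdnf windows 1 held CACGTCA and with it the core, and the other windows of Bdnf and those of Ntf3, Ntrk2 and Ngfr held none of the 3 words. Of 32851 mouse promoter windows of this length 1.55% held TGACGTCA, 1.65% held CACGTCA and 17.8% held TGACG. The window with the match, at chr2:109692186-109692435 on the plus strand, commonly called promoter IV, is shown because it is the window with the element best known for activity-dependent Bdnf transcription, in capitals. A match is a description of the sequence and says nothing of binding in these mice.
Bdnf promoter IV: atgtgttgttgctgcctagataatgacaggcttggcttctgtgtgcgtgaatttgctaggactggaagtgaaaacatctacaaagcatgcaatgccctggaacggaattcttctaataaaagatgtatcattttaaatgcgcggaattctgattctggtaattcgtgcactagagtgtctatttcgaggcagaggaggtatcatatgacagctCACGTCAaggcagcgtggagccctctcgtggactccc

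Also, 14.4% of the exon bases of Bdnf are overlapped by an antisense gene, Gm45346, that the count table does not list. Since pairs were counted without regard to strand, antisense reads over those bases would be included in the Bdnf counts.

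Ntf3 (ENSMUSG00000049107, chr6:126101412-126166910, minus strand), the ligand of TrkC, was scarce in adult PFC. CON libraries held 1.27, 1.07, 1.30 and 1.10 CPM, GF libraries 1.19, 1.52, 0.645 and 1.43 CPM, and GFR1 to GFR4 0.704, 0.346, 1.02 and 1.16 CPM. GF spanned the whole range of CON, and 3 of 4 exGF libraries lay below every CON library. The log2 fold changes were 0.02 (SE 0.30) in GF and -0.54 (SE 0.33, 95% interval -1.25 to 0.18) in exGF against CON, with adjusted p of 0.990 and 0.952 in edgeR after Benjamini-Hochberg adjustment. The exGF value was -0.29 without GFR2, and with 1 library left out the GF value ranged from -0.13 (without GF replicate 2) to 0.23 (without GF replicate 3). With so few counts, a difference of up to 0.67 on the log2 scale in GF, or a decrease to -1.25 in exGF, lies within the intervals and was not detectable at this depth.

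Ntf5, which encodes another ligand of TrkB, was also low, with 4 to 12 counts in each library, and was not tested. Its values overlapped, at 0.152 to 0.469 CPM among CON, 0.220 to 0.669 among GF and 0.212 to 0.409 among exGF libraries.

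Among the kinase receptors, Ntrk2 (ENSMUSG00000055254, chr13:58806569-59133970, plus strand) was far more abundant than Ntrk3. Its libraries held 759, 704, 823 and 841 CPM in CON, 665, 798, 667 and 751 CPM in GF, and 726, 748, 775 and 656 CPM in GFR1 to GFR4. The means of GF (720 ± 65.5) and exGF (726 ± 51.0) were below that of CON (782 ± 62.6, SD, n = 4), and the groups overlapped. The log2 fold change was -0.12 in GF (SE 0.09, 95% interval -0.30 to 0.06) and -0.11 in exGF (SE 0.08, 95% interval -0.29 to 0.06), with adjusted p of 0.740 and 0.966 in edgeR. The GF value was -0.08 without CON replicate 4 or without GF replicate 3, and the exGF value was -0.05 without GFR4. With 8940 to 24114 counts per library, these intervals were narrow, and each left out a decrease beyond -0.30 on the log2 scale. The summed astrocyte markers also overlapped (CON 4520 to 4930, GF 4560 to 5040, exGF 4270 to 4840 CPM). Counts per gene cannot tell the kinase from the truncated receptor.

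Ntrk3 (ENSMUSG00000059146, chr7:78175959-78738012, minus strand), the neurotrophin-3 receptor, held 47.6, 50.3, 63.4 and 62.0 CPM in CON and 49.2, 52.7, 50.6 and 46.5 CPM in GF. The exGF libraries held 50.7, 67.1, 62.9 and 50.2 CPM. CON and exGF were each split into a lower and a higher pair, and the 4 GF libraries stayed with the lower of these. The log2 fold change was -0.17 in GF against CON (SE 0.10, 95% interval -0.39 to 0.06), 0.04 in exGF against CON (SE 0.13) and -0.21 in GF against exGF (SE 0.11, 95% interval -0.45 to 0.02), with adjusted p of 0.684, 0.997 and 0.739 in edgeR. None of these was called, and the GF to CON value was -0.10 without CON replicate 3 and -0.11 without CON replicate 4. Ntrk3 in exGF against CON ranged from -0.03 without GFR2 to 0.12 without GFR4.

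The ratio of ligand to receptor described Bdnf against its own receptor within each library. As counts per exon base, Bdnf to Ntrk2 was 0.137, 0.140, 0.138 and 0.128 in CON, 0.197, 0.211, 0.188 and 0.239 in GF, and 0.183, 0.149, 0.144 and 0.165 in GFR1 to GFR4. The 3 groups did not overlap, with means of 0.136 ± 0.00527, 0.209 ± 0.0223 and 0.160 ± 0.0178 (SD, n = 4), and exGF lay between CON and GF. The highest exGF value, 0.183, was close to the lowest GF value, 0.188. In this ratio the library scaling cancels, and the CON libraries differed less than in either gene alone. It was computed with the values of both genes known, so no test is given. How often ratios of other gene pairs separate the groups was not computed either. By contrast, the ratio of Ntrk2 to Ntrk3 overlapped, at 22.1 ± 2.02 in CON, 22.7 ± 2.17 in GF and 19.9 ± 2.08 in exGF. For Bdnf to Ntf3, which rests on few Ntf3 counts, exGF (8.32 to 28.7) overlapped both CON (7.28 to 8.68) and GF (9.77 to 17.3). CON and GF did not overlap in that ratio.

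**Figure D3:**
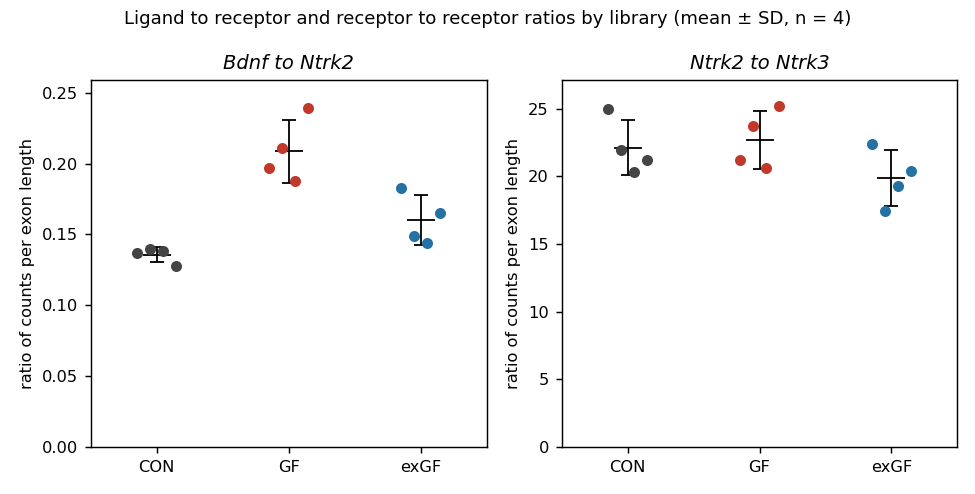
Ratio of Bdnf to Ntrk2 and of Ntrk2 to Ntrk3, each as counts per exon length (axes from 0), with points for libraries and bars for mean ± SD (n = 4). The Bdnf to Ntrk2 ratio does not overlap between CON, exGF and GF, and the Ntrk2 to Ntrk3 ratio overlaps in all groups.

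Ngfr (ENSMUSG00000000120, chr11:95568818-95587735, minus strand) encodes the p75 receptor, which in the adult brain is best known from basal forebrain cholinergic neurons. CON libraries held 0.779, 0.683, 0.614 and 0.495 CPM, GF libraries 0.967, 0.627, 0.591 and 0.881 CPM, and GFR1 to GFR4 0.166, 0.518, 0.424 and 0.681 CPM. GF overlapped CON, and 2 of 4 exGF libraries lay below every CON library. The log2 fold change was 0.23 (SE 0.33) in GF and -0.50 (SE 0.39, 95% interval -1.35 to 0.34) in exGF against CON, with adjusted p of 0.886 and 0.968 in edgeR. For GF against exGF it was 0.73 (SE 0.41, 95% interval -0.15 to 1.61, adjusted p = 0.753 in edgeR). Single libraries moved these values: exGF against CON was -0.23 without GFR1 and -0.77 without GFR4. GF against exGF was 0.47 without GFR1 and 1.02 without GFR4. GF against CON was 0.11 without GF replicate 1, 0.13 without CON replicate 4 and 0.15 without GF replicate 4. These intervals are the widest of the 7 genes together with those of Ntf3, and a difference of either sign could not be resolved. Of 11 genes for partners and adaptors of p75 in a prepared list, 0 were called in GF against CON, with 0 at an unadjusted p under 0.05, and their median log2 fold change was 0.04 against 0.01 over all genes. The smallest p values belonged to Rtn4, the inhibitory ligand Nogo (log2 0.16, SE 0.08, adjusted p = 0.596 in edgeR), and Maged1 (log2 -0.10, SE 0.07, adjusted p = 0.746).

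Sort1 (ENSMUSG00000068747, chr3:108284082-108361511, plus strand), which encodes sortilin, was the most abundant member per exon length and the one with the least difference between the groups. CON libraries held 614, 526, 672 and 697 CPM, GF libraries 672, 637, 598 and 616 CPM, and GFR1 to GFR4 641, 667, 690 and 577 CPM. GF lay wholly within the range of CON, and so did exGF. Log2 fold changes were 0.01 in GF against CON (SE 0.09, 95% interval -0.18 to 0.20), 0.03 in exGF against CON (SE 0.09, 95% interval -0.17 to 0.24) and -0.03 in GF against exGF (SE 0.08, 95% interval -0.20 to 0.14), with adjusted p of 0.988, 0.997 and 0.946 in edgeR. At this precision a change of more than 0.24 on the log2 scale in either direction lay outside each interval. The sign of so small a difference was not stable, and without CON replicate 2 it was -0.07 in GF and -0.04 in exGF against CON. CON replicate 2 and GFR4, the libraries high in striatal markers, had the lowest Sort1 levels of all (526 and 577 CPM) and the lowest levels of the related Sorl1 (381 and 399 CPM against 427 to 572 elsewhere). Without both libraries the exGF to CON difference of Sort1 was 0.02. The part of neighbouring tissue in these values was not tested.

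Sorcs2 (ENSMUSG00000029093, chr5:36017180-36398139, minus strand), the partner of p75 for the BDNF precursor, held 39.6, 43.8, 43.1 and 52.4 CPM in CON and 34.0, 35.7, 40.0 and 43.5 CPM in GF. The exGF libraries held 38.7, 42.6, 46.7 and 49.5 CPM. GF values lay towards the low end, with 2 of 4 below every CON library, and exGF lay within the range of CON apart from GFR1. Log2 fold changes were -0.22 in GF against CON (SE 0.11, 95% interval -0.46 to 0.01, unadjusted p = 0.0601, adjusted p = 0.602 in edgeR), -0.02 in exGF against CON (SE 0.11, adjusted p = 0.997) and -0.21 in GF against exGF (SE 0.11, 95% interval -0.44 to 0.02, adjusted p = 0.741). Sorcs2 had the second smallest p of the 7 genes in GF against CON and was not called, and without CON replicate 4 that value was -0.14. Unlike for Bdnf, the difference was downward, and the groups overlapped.

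The other Vps10p-domain receptors, a family of sorting receptors that includes Sort1 and Sorcs2, showed small differences. Sorl1, known for sorting the amyloid precursor protein, held 483 ± 93.7 (CON), 474 ± 14.6 (GF) and 500 ± 70.9 CPM (exGF). Sorcs1 held 47.2 ± 10.7, 47.3 ± 2.59 and 50.5 ± 5.03 CPM in the same order, and Sorcs3 held 52.7 ± 7.53, 58.4 ± 6.23 and 58.0 ± 7.94 CPM (SD, n = 4). In GF against CON the log2 fold changes were -0.03, 0.00 and 0.15. In edgeR 0 of 3 were called, with 0 at an unadjusted p under 0.05, beside 8.69% of all genes.

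Counted over the 7 genes, 0 were called in GF against CON, where edgeR called 0.251% of 15542 genes. DESeq2 called 1, Bdnf. At an unadjusted p under 0.05 there was 1 of 7 (Bdnf) beside 8.69% of all genes, and Bdnf was also the only member whose GF libraries all lay above CON, which held for 2.53% of all genes. In exGF against CON 0 of 7 were called, beside 0.0696% of 15813 genes, and 0 had an unadjusted p under 0.05, beside 5.33%. In GF against exGF 0 of 7 were called, beside 0% of 15569 genes, and 1 (Bdnf) had an unadjusted p under 0.05, beside 6.65%. DESeq2 and limma-voom called 0 of the 7 in both of these. The median log2 fold change of the 7 was 0.01, -0.02 and -0.01 in the 3 comparisons, as against 0.01, -0.01 and 0.00 over all genes. Pairs of these comparisons share libraries, so their values are not independent of each other.

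**Figure D4:**
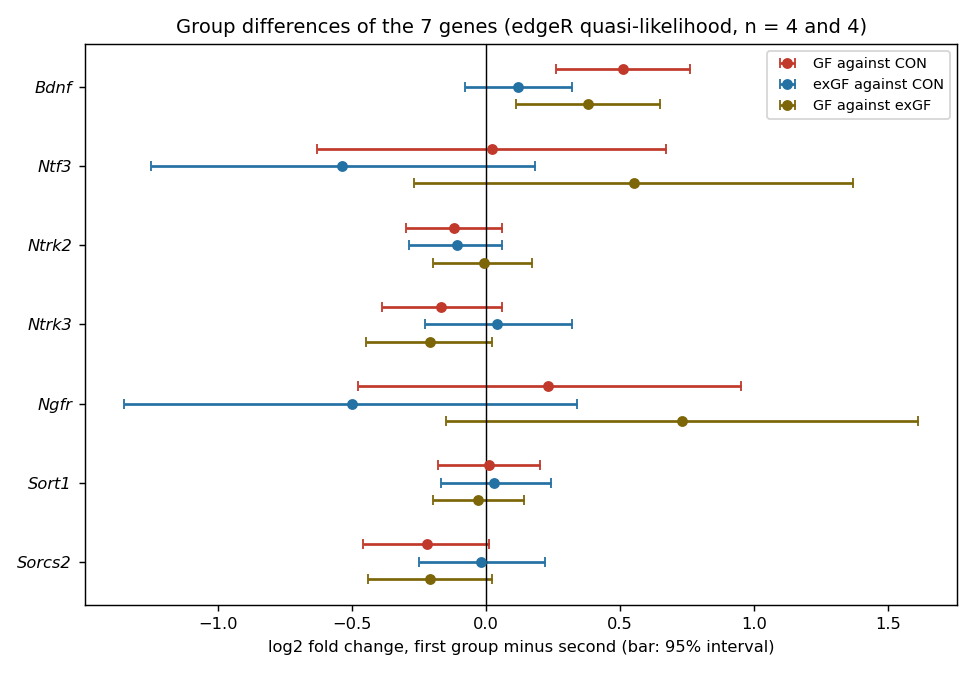
Log2 fold change of the 7 genes in the 3 comparisons (first group minus second), with 95% intervals from edgeR's quasi-likelihood fit (n = 4 and 4). The interval of Bdnf leaves out 0 in GF against CON and in GF against exGF, and every other interval includes 0.

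Neurotrophin signalling was then described through lists of genes for its steps, beginning outside the cell. Of 18 genes for cleavage and secretion of neurotrophins 15 were tested in GF against CON and 0 called in edgeR, with a median log2 fold change of 0.00. An unadjusted p under 0.05 was found for 3, beside 8.69% of all genes. Hap1, whose product works with huntingtin in the transport of BDNF vesicles, held 113, 153, 114 and 123 CPM in CON and 81.3, 104, 87.7 and 93.5 CPM in GF, so that all GF libraries were below CON (log2 -0.46, SE 0.11, adjusted p = 0.155 in edgeR). All GF libraries lying below CON was seen for 2.55% of all genes. GFR1 to GFR4 held 93.0, 113, 112 and 130 CPM. The highest Hap1 levels of CON and of exGF were those of CON replicate 2 and GFR4. Serpini1, the neuronal serpin that inhibits tissue plasminogen activator, had mean levels of 288 (CON), 368 (GF) and 314 CPM (exGF), with a log2 fold change of 0.35 in GF against CON (SE 0.10, adjusted p = 0.235). The study had picked both of these genes on the same libraries.

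The Trk adaptors showed little. Of 22 genes 0 were called and 1 had an unadjusted p under 0.05, beside 8.69% of all genes, with a median of 0.02. That gene was Plcg2, a phospholipase, with 4.96, 5.80, 4.30 and 6.13 CPM in CON and 3.20, 3.27, 4.19 and 4.24 CPM in GF, all below CON (log2 -0.50, SE 0.18, adjusted p = 0.410 in edgeR). The gap was narrow (4.24 against 4.30 CPM), and all GF libraries lay below CON for 2.55% of all genes. The exGF values of Plcg2, 5.06 to 5.83 CPM, were all within CON. For Crk, an adaptor between Trk and Rap1, the log2 fold change was 0.16 (SE 0.09, adjusted p = 0.644).

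Of 20 kinases and small GTPases of the Ras-ERK and PI3K pathways 0 were called in edgeR and 3 had an unadjusted p under 0.05, beside 8.69% of all genes, with a median of 0.04. Mapk3, which encodes the kinase ERK1, held 193, 204, 149 and 173 CPM in CON and 117, 138, 138 and 135 CPM in GF, with all GF libraries below CON, beside 2.55% of all genes (log2 -0.45, SE 0.10, adjusted p = 0.144). In GFR1 to GFR4 it held 116, 118, 134 and 195 CPM, so 3 of 4 exGF libraries were also below CON. The exception was GFR4, and CON replicate 2 was the highest of CON. Mapk3 too had been picked by the study on these libraries.

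Regulators of Bdnf transcription also showed little, with 0 of 16 called, 1 at an unadjusted p under 0.05 (beside 8.69% of all genes) and a median of 0.02. Mef2a, a transcription factor for activity-dependent genes, had a log2 fold change of 0.21 (SE 0.09, adjusted p = 0.526 in edgeR) and Crem, a relative of Creb1, of 0.32 (SE 0.15, adjusted p = 0.587).

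The list that stood highest was that of 17 genes known to respond to Trk signalling or neuronal activity. All 17 had a positive log2 fold change in GF against CON, beside 8031 of the 15542 genes tested, with a median of 0.33 beside 0.01. Of the 17, 10 had an unadjusted p under 0.05, beside 8.69% of all genes in either direction. In edgeR 1 was called, beside 0.116% of all genes called higher. The called gene was Dusp6, a phosphatase that switches off ERK, which rose from 71.1 to 107 CPM (log2 0.60, SE 0.09, adjusted p = 0.0168 in edgeR). It held 79.1, 61.6, 68.1 and 75.8 CPM in CON, 101, 110, 104 and 115 CPM in GF, and 101, 83.4, 77.8 and 92.3 CPM in exGF, where GFR3 alone fell within CON. Arc, a synaptic immediate early gene, held 306, 158, 189 and 270 CPM in CON and 419, 301, 448 and 486 CPM in GF (log2 0.84, SE 0.19, adjusted p = 0.135). Nr4a1, a nuclear receptor induced by activity, averaged 88.5 CPM among CON and 136 CPM among GF libraries, where all 4 libraries lay above CON, beside 2.53% of all genes (log2 0.62, SE 0.13, adjusted p = 0.125). Arc, Egr1, Nr4a1, Dusp6 and Spry4 had been picked by the study on these libraries and are not independent evidence of a direction. The other 12 genes had a median of 0.24, with 5 at an unadjusted p under 0.05, beside 8.69% of all genes. The list was chosen with earlier results of these data known, so these 12 are no independent evidence either. They include Egr2, which the study also reported as higher in GF.

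In exGF against CON the same list had a median of 0.12 beside -0.01 over all genes, with 12 of 17 positive beside 7569 of 15813. Of the 17, 3 had an unadjusted p under 0.05, beside 5.33% of all genes, and 0 were called in edgeR. For the 5 genes picked by the study the median was 0.31, with 3 at an unadjusted p under 0.05. For the 12 genes not picked by the study it was 0.04, with 0 at that p. In GF against exGF the median of the 17 was 0.23 beside 0.00, and all 17 were positive, beside 7990 of 15569 genes. An unadjusted p under 0.05 was found for 5 (beside 6.65% of all genes), and 0 were called in edgeR. The markers that differed between GF and CON, of oligodendrocytes and meninges, differed alongside this list, and their part in it was not tested.

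**Figure D5:**
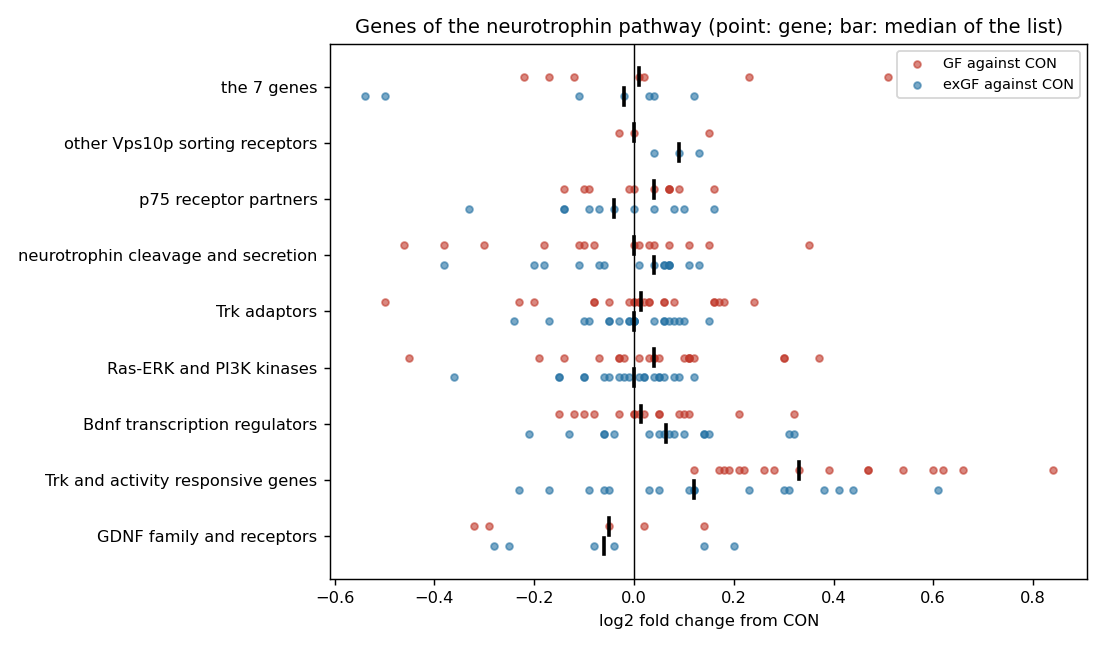
Log2 fold change from CON of each tested gene of the prepared lists in GF and in exGF, with points for genes and a black bar for the median of each list. The medians lie near 0 for most lists, while for the Trk and activity responsive genes the median in GF is 0.33 and all 17 points are above 0.

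Genes whose level followed that of each member most closely over the 12 libraries were named as a description, among 14107 genes with a mean of at least 1 CPM. For Bdnf they were Prss23 (Pearson r 0.92, Spearman rho 0.82), Sgcb (0.90 and 0.79), Epb41l2 (0.90 and 0.84), Fam169a (0.89 and 0.85) and Khdrbs1 (0.89 and 0.78). By Spearman rho these 5 genes ranked only between 48 and 148. After removal of the group means their r was 0.71 to 0.88. It comes from the libraries that selected the genes and is no separate evidence. For Ntrk2 they were Prrg3 (r 0.96), Ankrd50 (0.94) and Cntnap5b (0.94), for Ntrk3 Shisa7 (0.94), Ankhd1 (0.93) and Ep400 (0.93), and for Sort1 Kat6b (0.97), Acvr1b (0.96) and Mta3 (0.96). Sorcs2 was followed less closely, by L1cam (0.86), Igsf10 (0.86) and Mcm3ap (0.85). For the scarce genes the nearest were Lix1l (0.92), Clba1 (0.86) and Ctss (0.85) for Ntf3, and Fzd8 (0.89), Imp4 (0.86) and Tnfrsf21 (0.84) for Ngfr, and these rest on few counts. All points share 12 libraries, their depth and their scaling.

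Among the 7 genes themselves the closest were Sort1, Ntrk3 and Ntrk2. Over the 12 libraries Pearson r was 0.62 for Ntrk3 with Sort1, 0.57 for Ntrk2 with Ntrk3 and 0.56 for Ntrk2 with Sort1. After removal of the group means these were 0.69, 0.62 and 0.70. Bdnf and Ntrk2 had an r of 0.06 over all libraries and 0.67 within the groups. Bdnf and Sorcs2 had an r of -0.47 over all libraries and 0.00 within the groups.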

How the data were processed

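RNA-sequencing counts of 12 PFC libraries were used. Per the labels and the study's methods, the authors trimmed read pairs (Trimmomatic 0.32), aligned them to GRCm38.p3 (STAR, 2.3.1u in the submitters' processing notes), counted pairs per Ensembl gene without regard to strand (HTSeq 0.6.0) and deposited raw counts without normalization. Rows that name no gene held 4.57% to 7.31% (no feature), 1.10% to 1.32% (ambiguous) and 13.0% to 19.2% (aligned to several places) of a library and were left out. Of 41388 genes 40254 had a symbol in GENCODE M21. CON and GF columns carry their sample's name, and the GFR columns were taken as exGF since no other samples were left.

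CPM used TMM-scaled library sizes over all 12 libraries (16032 genes kept), and levels per kilobase used the union of annotated exons. Each pair of groups was filtered by filterByExpr and fitted with edgeR (glmQLFit, glmQLFTest), and p-values were adjusted after Benjamini and Hochberg over all genes tested (R 4.3.3, edgeR 4.0.16, limma 3.58.1, DESeq2 1.42.0). Calls required an adjusted p below 0.1, as in the study's methods. Intervals are 95% intervals of the fit. Exact permutation tests used log2 CPM with a prior count of 1. The edgeR fit was tested on counts simulated from the GF and CON libraries. Alternatives were other scalings, filters and tools, a threshold of 0.05, the replicate number as a block and each library left out.

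Named were all members, the listed family members, any called gene of each list or else the 2 with the smallest p in GF against CON, and the 3 genes (5 for Bdnf) most correlated with each member. The other activity-responsive genes, and the library values of Mapk3 and Hap1, were added after their values were seen. The members and lists were chosen with earlier results of these data known. Results of some single genes of the lists are not reported here.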

Additional observations from a re-analysis of the deposited data

Results flagged for a closer look

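The Bdnf level of GFR1, 42.8 CPM, stood apart from the other 3 exGF libraries, which held 34.9 to 36.0 CPM. Its distance to the nearest of them was 0.868 of the range of the group, above the 95% critical value of Dixon's test for 4 libraries. It was 1 of 21 groups of libraries examined (7 genes in 3 groups), and chance alone gives such a value in about 5% of groups. GFR1 also had the lowest Ngfr level of the 12 libraries (0.166 CPM, 4 counts), and its Bdnf to Ntrk2 ratio of 0.183 was the highest of exGF. Without GFR1 the log2 difference of Bdnf between GF and exGF was 0.45 in place of 0.38, and it was not called (adjusted p = 0.222, edgeR with Benjamini-Hochberg adjustment). The exGF to CON value was 0.06 without GFR1 in place of 0.12.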

How the results depend on the processing

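Bdnf in GF against CON kept its direction under all 18 alternatives, with log2 fold changes of 0.40 to 0.59 and adjusted p of 0.0112 to 0.358 (edgeR, DESeq2 or limma with Benjamini-Hochberg adjustment). It was called under 4 of them: without a filter on low counts (0.49, adjusted p = 0.0189), with DESeq2 on the 2 groups (0.40, adjusted p = 0.0157) or on 12 libraries (0.40, adjusted p = 0.0112), and without GF replicate 3 (0.59). Leaving out 1 library gave 0.42 to 0.59. The number of the 7 genes called was thus 1 under those 4 settings and 0 to 1 over libraries left out. The cause was not tested. List genes called in GF against CON numbered 1 (Dusp6) in the reported fit, 8 without a filter, 8 with DESeq2 on 2 groups, 3 with DESeq2 on 12 libraries, 2 with limma-voom and 1 to 6 with 1 library left out, the highest without CON replicate 1. All genes called in GF against CON rose from 39 to 221 without a filter, 195 with DESeq2 on 2 groups and 163 on 12 libraries.

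Small differences changed sign, and a value under 0.005 was counted as having none. In GF against CON, Ntf3 was -0.03 with limma-voom and ranged from -0.13 to 0.23 with 1 library left out, and Sort1 was -0.01 without a filter and from -0.07 to 0.06. In exGF against CON the same ranges were -0.03 to 0.12 for Ntrk3, -0.04 to 0.10 for Sort1 and -0.06 to 0.07 for Sorcs2, and in GF against exGF -0.07 to 0.02 for Ntrk2. None of these passed the threshold. With at least 10 counts in every library, Ntf3 and Ngfr gave no value in the exGF comparisons. The fit of exGF against CON without CON replicate 2 and GFR4 was added after seeing the data and called 0 of the 7 genes.

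With the replicate number as a block, GF against CON called 0 of the 7 genes and 4 list genes (Arc, Dusp6, Hap1 and Nr4a1), and Ntf3 was -0.02. Libraries with the same number had correlations of -0.054 to 0.026, within the -0.081 to 0.099 of libraries with different numbers. No pairing by number was seen, but correlations this small cannot decide whether one existed. The GFR columns allowed no such fit.

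Depth limited Ntf3 and Ngfr, and Ntf5 could not be tested.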

Other observations

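GDNF and its relatives are a separate family of neurotrophic factors that signal through the kinase Ret and the GFRalpha receptors. Of 9 genes of this family 5 were tested in GF against CON, and 0 were called in edgeR, with 0 at an unadjusted p under 0.05 and a median log2 fold change of -0.05. Ret, the shared kinase, averaged 6.63 (CON), 5.40 (GF) and 5.59 CPM (exGF), with a log2 fold change of -0.29 in GF against CON (SE 0.16, adjusted p = 0.636 in edgeR with Benjamini-Hochberg adjustment). Gfra1, the receptor for GDNF, held 23.0, 25.4 and 25.5 CPM in the same order (log2 0.14, SE 0.10, adjusted p = 0.741).

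The inhibitory neuron markers summed to 765 to 934 (CON), 876 to 1020 (GF) and 770 to 913 CPM (exGF). In GF against CON 0 of 6 were called and 1 had an unadjusted p under 0.05, beside 8.69% of all genes.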
